A study of Nicotiana tabacum with 6 samples.

Results

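The AMT genes of cultivated tobacco (Nicotiana tabacum) encode ammonium transporters of the plasma membrane. Members were taken by name: every gene whose deposited symbol begins with AMT and a digit. This gave 22 of the 69500 genes in the table, 9 of the AMT1 type and 13 of the AMT2 type. The AMT1 genes comprised 4 AMT1-2, 4 AMT1-3 and 1 AMT1-4. All but 2 of the AMT1-3 genes carried an Arabidopsis locus beside the symbol (AT1G64780 for AMT1-2, AT3G24300 for AMT1-3, AT4G28700 for AMT1-4 and AT2G38290 for AMT2). The table held 0 genes under the symbols AMT1-1 or AMT1-5.

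Low nitrogen seedlings grew for 15 days in a Hoagland-type solution with 0.75 mM NH4NO3, and control seedlings in the same solution with 7.5 mM NH4NO3, renewed every 7 days. Each group had 3 libraries of polyadenylated RNA, which are given below as replicates 1 to 3. No genotype, cultivar or age is given in the labels, and nothing there says whether libraries of a group came from separate plants, so the p-values below reflect only how these libraries varied, which may be technical. Both groups were supplied with ammonium and nitrate together, so that the comparison is between amounts of both ions.

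Plants take up ammonium from the soil solution through AMT proteins, and the glutamine synthetase and glutamate synthase cycle then builds it into amino acids. AMT1 proteins are high-affinity uniporters, and in Arabidopsis AMT1;3 works in the outer cells of the root and AMT1;2 in inner root tissues. AMT2 belongs to a distinct branch, and in Arabidopsis it contributes to the movement of ammonium from root to shoot. Activity is also set after translation: in Arabidopsis the kinase CIPK23, a partner of the calcium sensors CBL1 and CBL9, phosphorylates AMT1 transporters and shuts them. Several AMT1 genes of Arabidopsis roots are known to gain transcripts when nitrogen is short.

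Library totals ran from 13027374 to 15620067 counts. By the labels the tissue was seedling, with no organ named. The summed level of 152 genes with symbols of light-harvesting, photosystem and small Rubisco subunits was 1073, 510.6 and 240.5 CPM (counts relative to the library total after TMM scaling) in low nitrogen replicates 1 to 3, against 203, 163 and 1882 CPM in control replicates 1 to 3. Of these 152 genes 10 were at 0 in all 6 libraries. The summed level of 29 root-associated genes was 1463, 1932 and 1335 CPM in low nitrogen and 1601, 1897 and 1885 CPM in controls, and 0 of them were at 0 throughout. Control replicate 3 and low nitrogen replicate 1 therefore held the most photosynthesis transcripts of their groups.

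Most AMT counts came from 3 pairs of genes, a pair each of AMT1-3, AMT1-2 and AMT2. These 6 genes held 98.8% of the 19450 AMT counts, each with at least 1553, while the next gene held 71. Only 7 of the 22 genes passed the filter on low counts: those 6 and AMT1-4. Gene lengths are not in the files, so a CPM value is compared between libraries for the same gene and never between genes as a level. Near-identical copies may have exchanged reads during counting, and fewer cells of a type cannot be told apart from less RNA per cell in such bulk samples.

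Both well-covered AMT1-3 genes were higher in every low nitrogen library than in any control library, while the AMT1-2, AMT1-4 and AMT2 genes overlapped between the groups. With edgeR's quasi-likelihood test and Benjamini-Hochberg adjustment over all 38482 genes tested, 0 of the 7 AMT genes passed the threshold of 0.05, as did 0% of all genes. At an unadjusted p under 0.05 there were 2 AMT genes, both AMT1-3 and both higher, and 0 lower, against 6.1% of all genes higher and 5.66% lower. The second AMT1-3 gene missed that level without control replicate 1 (p 0.0545), without control replicate 3 (p 0.0515), and with control replicate 3 and low nitrogen replicate 1 both absent (p 0.0678) in edgeR, while the second AMT1-2 gene, with a fold change below 0, reached it without low nitrogen replicate 2 (p 0.0432). Absence of overlap with low nitrogen above control was seen for 2 of the 7, against 9.66% of all genes tested, and in the opposite direction for 0 of the 7, against 8.54%. DESeq2 placed 1 of the 7 past its adjusted threshold, against 1.53% of all genes and 0.709% counted as higher. limma-voom placed 0 of the 7 and 0% of all genes, with 2 of the 7 at an unadjusted p under 0.05. The fold change was above 0 for 6 of the 7 genes, against 50.3% of all genes, with a median log2 value of 0.15 against 0.0029 over all genes. These shares describe a small set chosen with earlier results known.

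The first AMT1-3 gene (Nitab4.5_0003474g0010) had 1052, 1429 and 1300 counts in low nitrogen replicates 1 to 3, against 637, 793 and 630 counts in control replicates 1 to 3. After scaling these were 73.6, 89.2 and 90.2 CPM in low nitrogen and 51.7, 59.5 and 44.6 CPM in controls. The lowest low nitrogen library was thus 1.24 times the highest control library, and the groups did not overlap. The ratio of the means was 1.62, and the fitted log2 fold change was 0.70 (SE 0.16, 95% interval 0.33 to 1.07). Its unadjusted edgeR p was 0.00281, the 320th smallest of all genes, and the adjusted p was 0.332. DESeq2 gave it an adjusted p of 0.0257. That call ended when DESeq2 was run without low nitrogen replicate 1 (0.053), 2 (0.216) or 3 (0.0753), and without control replicate 1 (0.315) or 3 (0.0811), and held without control replicate 2 (0.0298). The fold change itself stayed between 0.59 and 0.81 when single libraries were left out of the edgeR fit, and was 0.68 when low nitrogen replicate 1 and control replicate 3 were left out together.

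The second AMT1-3 gene (Nitab4.5_0002937g0040) had 518, 593 and 550 counts in low nitrogen, against 310, 422 and 302 counts in controls. Scaled levels were 36.2, 37.0 and 38.2 CPM in low nitrogen and 25.2, 31.7 and 21.4 CPM in controls. The 3 low nitrogen libraries lay close together, with a coefficient of variation of 2.58%, below the 4.25% that counting alone gives at this depth, while the controls varied by 19.9%. The groups did not overlap, and the lowest low nitrogen library was 1.14 times the highest control library. Its log2 fold change was 0.51 (SE 0.16, 95% interval 0.13 to 0.89, edgeR unadjusted p 0.0156, adjusted p 0.377). Without single libraries it lay between 0.38 and 0.68, the lowest without control replicate 3. DESeq2 gave it an adjusted p of 0.258.

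**Figure D1:**
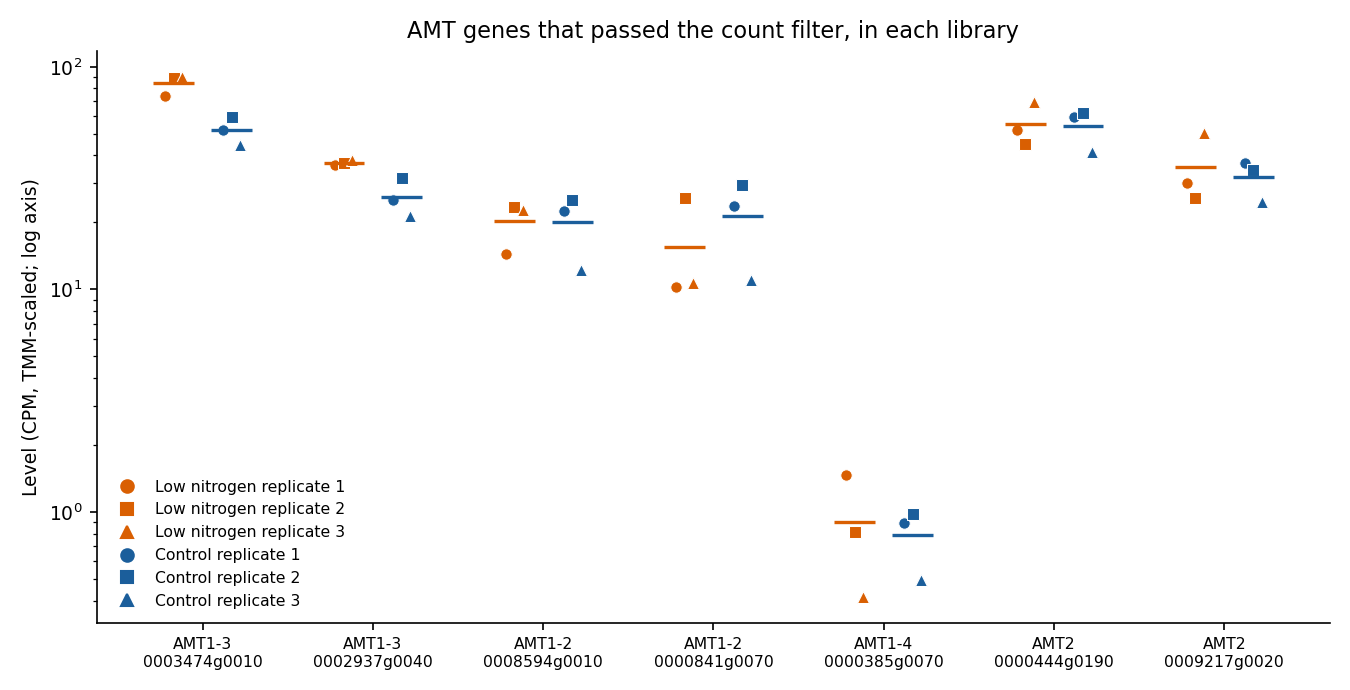
Level of each AMT gene that passed the count filter (y axis, TMM-scaled CPM on a log axis) in each library, with low nitrogen libraries in orange left of control libraries in blue. Points are libraries, marker shapes are replicate numbers and bars are group means; both AMT1-3 genes have all 3 low nitrogen libraries above all 3 control libraries, and the other 5 genes overlap.

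The 2 other AMT1-3 genes, which carry no Arabidopsis locus, were barely covered. Nitab4.5_0005734g0020 held 7, 10 and 16 counts in low nitrogen and 0, 7 and 12 counts in controls. Nitab4.5_0002600g0010 held 1, 2 and 2 counts in low nitrogen and 4, 1 and 4 counts in controls. Neither passed the filter, and both overlapped between the groups. Summed over the 4 genes, AMT1-3 stood at 110, 127 and 129.6 CPM in low nitrogen against 77.2, 91.8 and 67.1 CPM in controls. The mean was 122 ± 10.4 CPM in low nitrogen and 78.7 ± 12.4 CPM in controls (SD, n = 3 each). When counts were summed over identical symbols before the edgeR fit, AMT1-3 had a log2 fold change of 0.62 and an adjusted p of 0.311.

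Neither well-covered AMT1-2 gene separated the groups. The first AMT1-2 gene (Nitab4.5_0008594g0010) was at 14.4, 23.5 and 22.7 CPM in low nitrogen, against 22.5, 25.2 and 12.2 CPM in controls. Low nitrogen replicate 1 and control replicate 3 were the low libraries of their groups, and the groups overlapped almost fully. Its log2 fold change was 0.02 (SE 0.30, 95% interval -0.69 to 0.73, edgeR adjusted p 0.987), so that changes of either sign within that interval were not excluded.

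The second AMT1-2 gene (Nitab4.5_0000841g0070) was at 10.3, 25.7 and 10.7 CPM in low nitrogen and 23.7, 29.4 and 11.04 CPM in controls. Low nitrogen replicate 2 stood apart from the other 2 libraries of its group, and control replicate 3 from the other 2 controls. The log2 fold change of -0.45 (SE 0.46, 95% interval -1.54 to 0.63, edgeR adjusted p 0.703) moved to -1.03 without low nitrogen replicate 2, to -0.78 without control replicate 3 and to -0.15 without control replicate 2. It was -0.25 without low nitrogen replicate 1 and -0.24 without low nitrogen replicate 3. The remaining AMT1-2 genes held 6 counts (Nitab4.5_0000392g0090) and 2 counts (Nitab4.5_0000385g0090) over all 6 libraries.

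The 2 libraries with the lowest levels of the first AMT1-2 gene were those with the highest photosynthesis sums. Control replicate 3, at 12.2 CPM, had a photosynthesis sum of 1882 CPM, and low nitrogen replicate 1, at 14.4 CPM, one of 1073 CPM. The other 4 libraries were at 22.5 to 25.2 CPM with sums of 163 to 510.6 CPM. The second AMT1-2 gene did not have this order: low nitrogen replicate 3 was at 10.7 CPM with a photosynthesis sum of 240.5 CPM, next to control replicate 3 at 11.04 CPM. The AMT2 genes did not have it either, since in low nitrogen both were lowest in replicate 2 and not in replicate 1. For the first AMT1-3 gene the same 2 libraries were the lowest of their own groups, at 73.6 CPM in low nitrogen replicate 1 and 44.6 CPM in control replicate 3, but low nitrogen replicate 1 was still above all controls. Within groups, the same 2 libraries were also lowest for the second AMT1-2 gene (10.3 and 11.04 CPM) and the second AMT1-3 gene (36.2 and 21.4 CPM). The part of the photosynthesis transcripts in these levels was not tested. The root-associated sums did not order the libraries in this way: low nitrogen replicate 3 had the lowest, at 1335 CPM, and control replicate 3, at 1885 CPM, was close to the highest. A large part of these sums was QPT, at 744, 884 and 780 CPM in low nitrogen and 651, 888 and 1025 CPM in controls. Single root-associated genes could differ from the sums. TIP2-3 (Nitab4.5_0001381g0190) was at 10.3, 27.4 and 14.7 CPM in low nitrogen and 50.1, 46.6 and 19.5 CPM in controls. It was thus lowest within groups in the same 2 libraries.

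**Figure D2:**
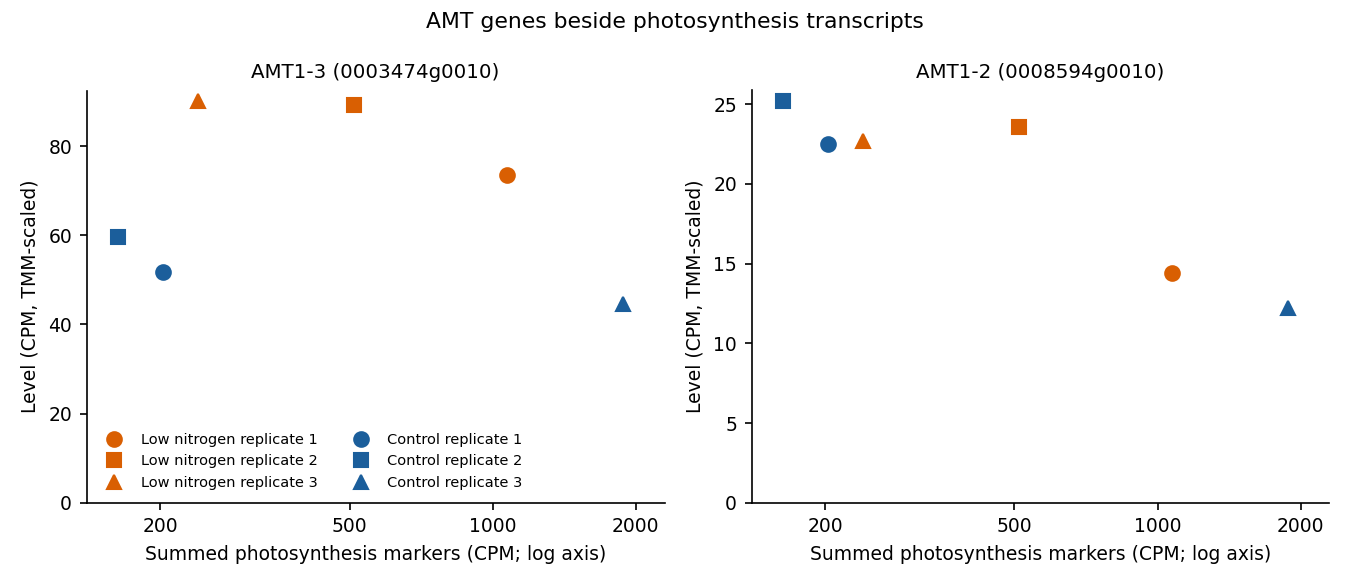
Level of the first AMT1-3 gene (left) and the first AMT1-2 gene (right), in TMM-scaled CPM on the y axes, against the summed photosynthesis markers of the same library in CPM (x axes, log scale). Each point is a library, low nitrogen in orange and control in blue. The first AMT1-2 gene is at 12.2 and 14.4 CPM in the 2 libraries with the highest sums, its lowest levels. The second AMT1-2 gene (not drawn) does not have this order over all libraries. Within their own groups these 2 libraries are the lowest for both well-covered AMT1-2 genes and both well-covered AMT1-3 genes. All low nitrogen libraries lie above all control libraries for the drawn AMT1-3 gene.

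AMT1-4, which in Arabidopsis is a pollen transporter, was near the limit of detection. Its single gene (Nitab4.5_0000385g0070) held 21, 13 and 6 counts in low nitrogen, against 11, 13 and 7 counts in controls. The groups overlapped, and counting error alone gives a coefficient of variation of 27.4% in low nitrogen and 31.1% in controls at this depth. The log2 fold change of 0.19 had a 95% interval of -1.10 to 1.48 (edgeR adjusted p 0.905).

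The AMT2 pair was well covered and showed little difference between the group means. The first AMT2 gene (Nitab4.5_0000444g0190) was at 52.1, 44.8 and 69.6 CPM in low nitrogen and 59.3, 62.0 and 41.6 CPM in controls. The second (Nitab4.5_0009217g0020) was at 30.2, 25.6 and 50.5 CPM in low nitrogen and 37.0, 34.2 and 24.6 CPM in controls. In both genes low nitrogen replicate 3 was the highest library of all 6 and control replicate 3 the lowest. Their log2 fold changes were 0.03 (SE 0.22, 95% interval -0.48 to 0.55, edgeR adjusted p 0.964) and 0.15 (SE 0.28, 95% interval -0.51 to 0.81, edgeR adjusted p 0.847). Both changed sign when either low nitrogen replicate 3 or control replicate 3 was left out.

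Of the other 11 AMT2 genes, 7 held 0 counts in all 6 libraries. With 3 counts as the limit that a count of 0 allows, each of these 7 could have reached 0.0355 CPM over the pooled libraries, a limit that covers counting error only. The 4 AMT2 genes left held between 2 and 56 counts each over all 6 libraries, unevenly spread between libraries. Nitab4.5_0000147g0010 held 1, 5 and 7 counts in low nitrogen and 31, 0 and 12 counts in controls. Nitab4.5_0001663g0140 held 0, 1 and 1 counts in low nitrogen and 2, 18 and 0 counts in controls. For both, the highest and the lowest control library differed more than the groups did. Nitab4.5_0001685g0010 held 3 counts, all in low nitrogen replicate 1, and Nitab4.5_0001561g0040 held 2 counts, both in control replicate 2. The 13 AMT2 genes summed to 91.3 ± 26.1 CPM in low nitrogen and 87.9 ± 18.1 CPM in controls (SD, n = 3 each).

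**Figure D3:**
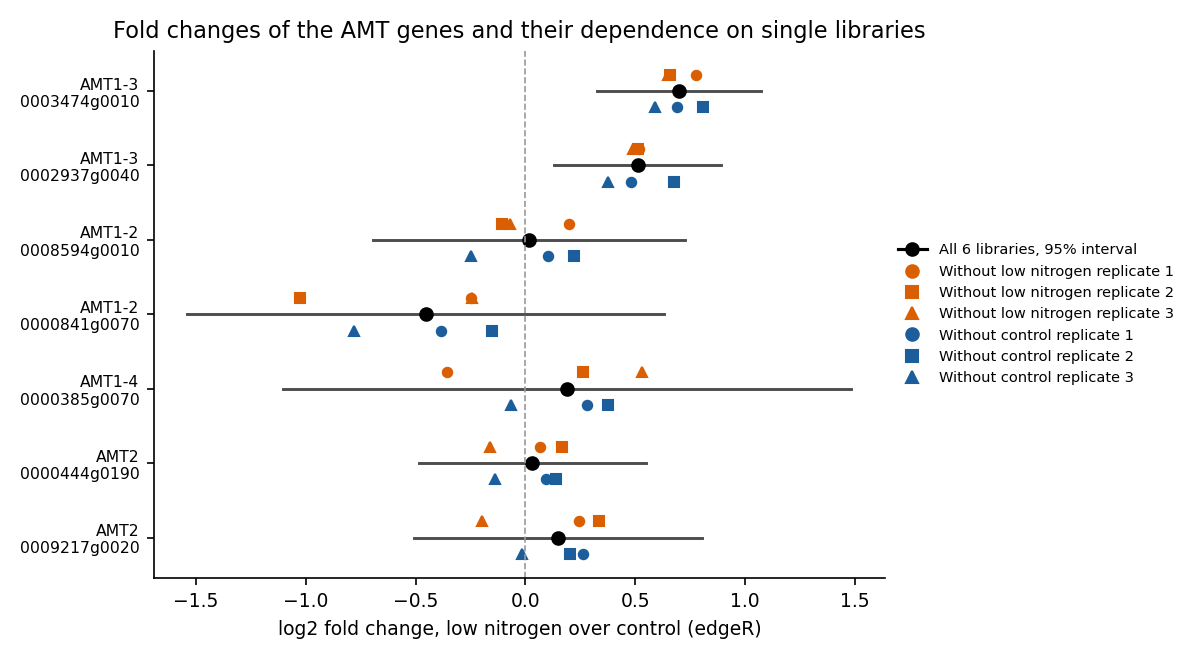
log2 fold change of low nitrogen over control (x axis, edgeR) for each AMT gene that passed the filter (y axis), with its 95% interval from all 6 libraries in black and the estimate without each library in colour. Both AMT1-3 genes stay above 0 without any single library, between 0.38 and 0.81, the second AMT1-2 gene stays below 0, and the other 4 genes cross 0.

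Counts of the AMT genes were also set against each other within a library, where scaling between libraries cancels. AMT1-3 took 50.4%, 51.2% and 45.6% of all AMT counts in low nitrogen replicates 1 to 3, against 34.6%, 37.4% and 42.5% in control replicates 1 to 3. The lowest low nitrogen share had an exact Clopper-Pearson 95% interval of 44.1% to 47.2% and the highest control share one of 40.4% to 44.6%, which meet in a narrow range and cover counting error only. The share averaged 49.1 ± 3.02% in low nitrogen and 38.2 ± 4.002% in controls (SD, n = 3 each), without overlap between the groups. AMT2 took 37.7%, 28.5% and 42.5% in low nitrogen and 44.3%, 39.8% and 42.4% in controls. AMT1-2 took 11.3%, 19.9% and 11.8% in low nitrogen and 20.7%, 22.3% and 14.8% in controls. Both of these shares overlapped between the groups. Whether the fold changes of AMT1-3, AMT1-2 and AMT2 differ from each other was not tested.

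The split of counts within a pair ranged least for AMT1-3. The first gene held 67.0%, 70.7% and 70.3% of the counts of the pair in low nitrogen and 67.3%, 65.3% and 67.6% in controls. The first AMT2 gene held 63.4%, 63.6% and 57.9% of its pair in low nitrogen and 61.6%, 64.4% and 62.8% in controls. The AMT1-2 pair varied most, with the first gene at 58.4%, 47.8% and 68.0% in low nitrogen and 48.7%, 46.2% and 52.6% in controls. In low nitrogen replicate 3 its share of 68.0% (exact Clopper-Pearson 95% interval 63.6% to 72.1%) lay outside the intervals of all 3 controls, the highest of which ended at 58.1%. The share of the first AMT1-2 gene in low nitrogen replicate 1, 58.4%, was also above all 3 control intervals, if narrowly. Its own interval was 53.0% to 63.6%. Shares beyond all 3 control intervals occurred once in each other pair. The first AMT1-3 gene held 70.7% in low nitrogen replicate 2, above control intervals that ended at 70.2%, 67.9% and 70.6%. The first AMT2 gene held 57.9% in low nitrogen replicate 3, below control intervals that began at 58.7%, 61.7% and 59.6%. These intervals cover counting error only, and the groups overlapped in all 3 pairs. The division of reads between such genes during counting was not given in the sources used here.

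**Figure D4:**
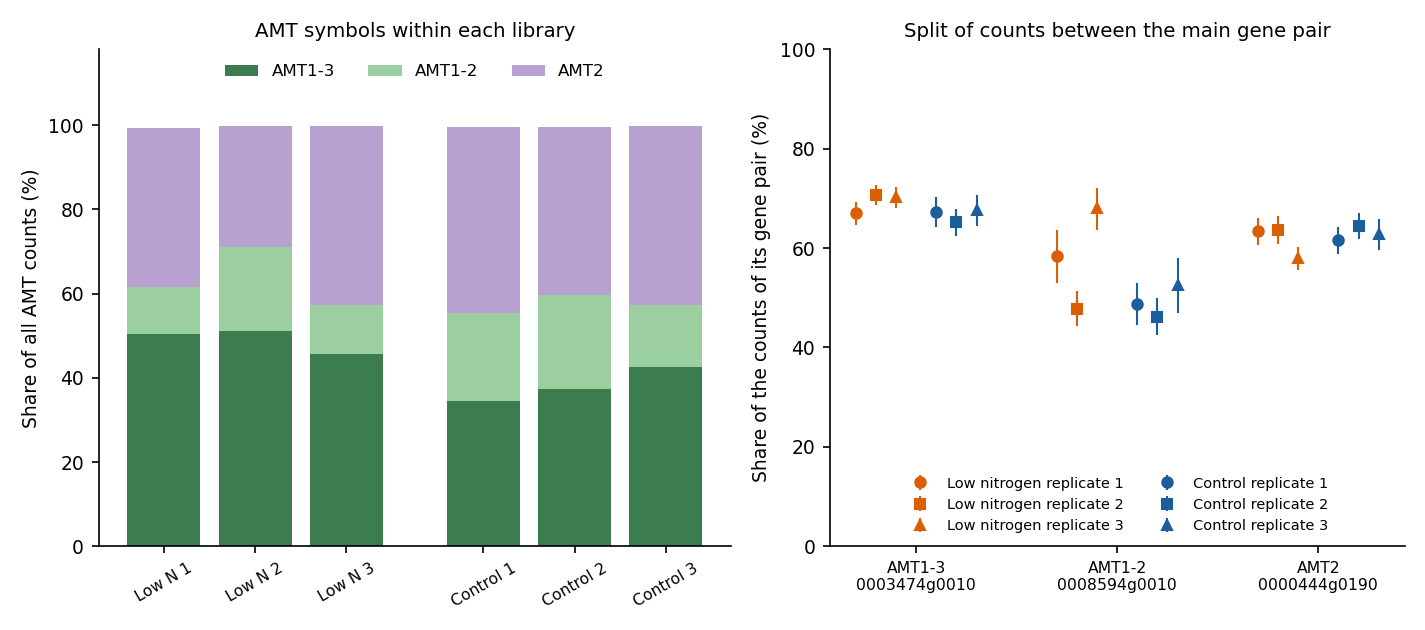
Left, share of all AMT counts (y axis, %) that fell on AMT1-3, AMT1-2 and AMT2 genes in each library, with low nitrogen left of control; the thin remainder is AMT1-4. Right, share of the counts of the AMT1-3, AMT1-2 or AMT2 pair (y axis, %) held by the gene named below, with exact 95% intervals for counting error; AMT1-3 took 45.6% to 51.2% in low nitrogen and 34.6% to 42.5% in controls, and the AMT1-2 pair had the widest range of splits, 46.2% to 68.0%.

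Summed over all 22 genes, the AMT level was 219, 248 and 284 CPM in low nitrogen, against 223, 245 and 158 CPM in controls. The groups overlapped, with 250.4 ± 32.5 CPM in low nitrogen and 209 ± 45.4 CPM in controls (SD, n = 3 each). The difference of the means was 41.5 CPM, and 43.6 CPM of it came from AMT1-3 while AMT1-2 contributed -5.61 CPM and AMT2 3.41 CPM. Without control replicate 3 the difference was 16.1 CPM, and without low nitrogen replicate 3 it was 24.7 CPM.

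Genes related to AMT transporters or to nitrogen handling were described by counts from lists of symbols. Among 22 tested genes of ammonium assimilation (of 24), 11 had fold changes above 0 and 11 below (median -0.06 on the log2 scale). An unadjusted edgeR p under 0.05 was reached by 2 genes above 0 and 2 below, few genes in either direction, against 6.1% and 5.66% of all genes. The 2 below 0 were GLN1-1 (Nitab4.5_0000574g0130) and GLN1 (Nitab4.5_0007727g0010), both cytosolic glutamine synthetases, and the 2 above 0 were GDH2 genes, which encode glutamate dehydrogenase. The last 3 of these genes were named after their values were seen. The other 4 tested genes of cytosolic glutamine synthetase, 3 GLN1 and 1 GLN1-1, had log2 fold changes above 0, from 0.01 to 0.56, and none had an unadjusted edgeR p under 0.05. The other tested GDH2 genes were at -0.55, 0.56, 0.17 and 0.05 on the log2 scale. GDHB, also a glutamate dehydrogenase gene, was at -0.23. None of these reached an unadjusted edgeR p under 0.05 either. GLN1-1 was at 36.7, 67.0 and 35.4 CPM in low nitrogen, against 330.3, 231 and 66.4 CPM in controls, so that control replicate 3 lay within the low nitrogen range (log2 fold change -2.17, SE 0.56, edgeR adjusted p 0.347, DESeq2 adjusted p 0.00317). GLT1 (Nitab4.5_0002492g0040), an NADH-dependent glutamate synthase and the gene of this list with the highest CPM, was at 281, 317 and 211 CPM in low nitrogen and 404, 572 and 291 CPM in controls. Its log2 fold change was -0.65 (SE 0.29, edgeR adjusted p 0.433).

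The genes of the calcium sensors CBL1 and CBL9 mostly lay on opposite sides of 0. All 4 CBL1 genes had log2 fold changes above 0, from 0.32 to 1.01. Of these, 1 was higher without overlap between the groups, against 9.66% of all genes, and 2 had an unadjusted edgeR p under 0.05, against 6.1%. Of 7 CBL9 genes 6 were below 0. Of these, 5 were lower without overlap, against 8.54% of all genes, and 3 had an unadjusted edgeR p under 0.05, against 5.66%. CBL1 (Nitab4.5_0010146g0020) was at 131, 131 and 94.8 CPM in low nitrogen, against 45.3, 50.4 and 82.4 CPM in controls (edgeR adjusted p 0.347, DESeq2 adjusted p 0.032). CBL9 (Nitab4.5_0003335g0020) was at 7.00, 6.87 and 6.31 CPM in low nitrogen, against 16.5, 13.1 and 9.13 CPM in controls (edgeR adjusted p 0.344, DESeq2 adjusted p 0.0576). The table held 0 genes under the symbols CIPK23 or CIPK15, so that the kinase itself was not analysed here.

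Urease, which releases ammonium from urea, had 2 genes that were higher without overlap between the groups, of 5 tested genes in its list, against 9.66% of all genes. The other 3, which encode urease accessory proteins, had log2 fold changes of 0.19 and 0.22 (URED) and -0.09 (UREF), and none had an unadjusted edgeR p under 0.05. URE (Nitab4.5_0003209g0020) was at 34.2, 27.5 and 29.1 CPM in low nitrogen and 19.8, 25.9 and 20.04 CPM in controls (log2 fold change 0.47, SE 0.16, edgeR adjusted p 0.388). The other URE gene (Nitab4.5_0000240g0180) was at 53.2, 41.9 and 39.8 CPM in low nitrogen and 26.1, 35.1 and 35.9 CPM in controls. Of the 13 tested genes of high-affinity nitrate uptake (NRT2 carriers and their NRT3 partners, 22 in all), 5 had an unadjusted edgeR p under 0.05 with a fold change above 0, against 6.1% of all genes, and 0 with one below, against 5.66%. DESeq2 placed 5 past its adjusted threshold, all above 0, against 0.709% of all genes, and edgeR placed 0. NRT2.6 (Nitab4.5_0000567g0010) was at 3.78, 3.06 and 1.18 CPM in low nitrogen, against 0.0812, 0 and 0.142 CPM in controls (edgeR adjusted p 0.255), where it rested on 3 counts in all. NRT3.2 (Nitab4.5_0008037g0050) was at 266, 393 and 299 CPM in low nitrogen and 303, 414 and 219.7 CPM in controls, with overlap between the groups.

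**Figure D5:**
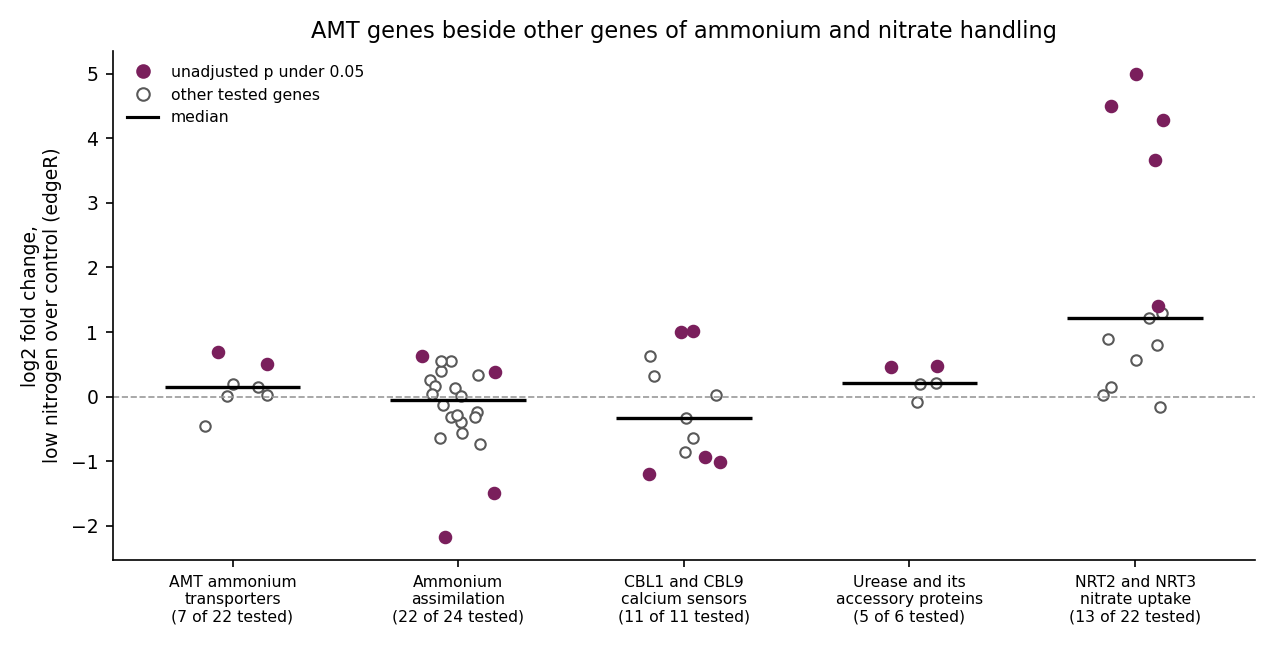
log2 fold change of low nitrogen over control (y axis, edgeR) of each tested gene in 5 lists (x axis), with filled points for genes at an unadjusted p under 0.05 and a bar at the median. The 7 AMT genes lie between -0.45 and 0.70, while the 22 assimilation genes reach -2.17. A range tends to widen with the number of genes, and the 5 genes of the urease list span less, -0.09 to 0.47.

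The pattern of the first AMT1-3 gene over the 6 libraries was compared with that of 22433 genes that had a symbol and a mean of at least 5 CPM, by Pearson's r of log2(CPM + 1). With 6 libraries such values are a description: 330 genes had r above 0.9. The highest were UGT80B1 (Nitab4.5_0000846g0050, r = 0.994), AEE10 (Nitab4.5_0004024g0030, 0.993), ATG18E (Nitab4.5_0008329g0020, 0.992), TAF9 (Nitab4.5_0003780g0070, 0.987) and a gene with the symbol SPBC21B10.03c (Nitab4.5_0002072g0120, 0.986). AEE10 was at 21.0, 24.4 and 26.8 CPM in low nitrogen and 12.7, 14.2 and 10.55 CPM in controls. ATG18E, an autophagy protein, was at 32.4, 35.8 and 34.8 CPM in low nitrogen and 28.0, 30.5 and 27.0 CPM in controls. The second AMT1-3 gene ranked 58th at r = 0.955. The first AMT1-2 gene ranked 5743rd at 0.436, and the second 12380th at -0.06. The AMT2 genes ranked 7248th at 0.334 (Nitab4.5_0009217g0020) and 7783rd at 0.291 (Nitab4.5_0000444g0190).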

How the data were processed

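Messenger RNA of 3 low nitrogen and 3 control seedling libraries was measured by sequencing. The authors deposited unnormalised read counts for each Nitab4.5 gene identifier in 1 table. Alignment used HISAT2, per the submitters' processing notes. Its release, the counter, strandedness and the handling of reads with several matches, which could divide reads between similar AMT copies, were not given in the sources used here.

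Members and lists were chosen with earlier results of these data known. Genes were kept by filterByExpr, scaled by TMM and tested with edgeR 4.0.16 (glmQLFit, glmQLFTest, R 4.3.3), low nitrogen over control, with no covariate, Benjamini-Hochberg adjustment over all 38482 genes and a threshold of 0.05. SE is the fold change divided by the root of F. Alternative tests were limma-voom (limma 3.58.1) and DESeq2 1.42.0. Lists were drawn from symbols; genes that shared a pattern but carried the locus or name of an unrelated protein were left out (7 from assimilation, 4 from the calcium sensors, 4 from photosynthesis, 3 from the root list). In each list the gene with the highest mean CPM and the one with the smallest edgeR p were named. For photosynthesis these were PSBR (Nitab4.5_0000313g0040, log2 fold change 0.22, unadjusted edgeR p 0.801) and LHCB2.4 (Nitab4.5_0009514g0080, 1.12, p 0.0188). For the root list they were QPT (Nitab4.5_0000742g0010, -0.09, p 0.711) and TIP2-3 (Nitab4.5_0001381g0190, -1.14, p 0.0377). Other alternatives were RLE and upper-quartile factors, a block for replicate number, no filter, a filter of 1 CPM in 3 libraries, summing identical symbols and leaving out libraries. No sequences or coordinates were used.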

Additional observations from a re-analysis of the deposited data

How the results depend on the processing

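Both AMT1-3 genes kept a fold change above 0 under all 16 alternatives (0.59 to 0.81 on the log2 scale for Nitab4.5_0003474g0010, adjusted p 0.0257 to 0.853, and 0.38 to 0.68 for Nitab4.5_0002937g0040, adjusted p 0.258 to 0.853). Among these, summing identical symbols gave only a pooled AMT1-3 value, 0.62, which was counted for both genes. The count of AMT genes past the threshold was 0 in each edgeR and limma-voom fit, 1 with DESeq2 and 1 with DESeq2 without a filter, a setting chosen after seeing the data, as was leaving out single libraries in DESeq2, which gave 0 to 1. Over all genes the count was 588 with DESeq2 and 562 without a filter, and 0 to 11 when edgeR was run without single libraries (11 where control replicate 3 was absent); with control replicate 3 and low nitrogen replicate 1 both absent it was 0.

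Fold changes near 0 changed sign. Nitab4.5_0008594g0010 (AMT1-2) was at -0.11, -0.07 and -0.25 without low nitrogen replicate 2, low nitrogen replicate 3 and control replicate 3. It was at -0.06 without low nitrogen replicate 1 and control replicate 3 together. With identical symbols summed, the pooled AMT1-2 counts were at -0.23, which is not a value of this gene alone. Nitab4.5_0000385g0070 (AMT1-4) was at -0.36 when low nitrogen replicate 1 was left out, -0.07 when control replicate 3 was, and -0.60 when both were. Nitab4.5_0000444g0190 (AMT2) was at -0.16 and -0.14 without low nitrogen replicate 3 and control replicate 3, and -0.10 with low nitrogen replicate 1 and control replicate 3 both absent, and Nitab4.5_0009217g0020 (AMT2) at -0.20 and -0.02 without low nitrogen replicate 3 and control replicate 3. Without single libraries the ranges were -0.25 to 0.22 for that AMT1-2 gene, -0.36 to 0.53 for AMT1-4, and -0.16 to 0.17 and -0.20 to 0.34 for these AMT2 genes. The cause was not tested.

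For libraries of the same replicate number, deviations from the group means correlated at -0.346, 0.143 and -0.25. For libraries of unlike number these correlations ran from -0.187 to 0.388. Such deviations cancel within a group, so these values cannot show whether libraries of the same number belonged together. With the replicate number as a block 0 AMT genes and 0 of all genes passed, and Nitab4.5_0003474g0010 had a log2 fold change of 0.70. The summed AMT level differed by 52.0 CPM on plain library totals and by 16.1 to 59.7 CPM without single libraries. At this depth few counts fell on AMT1-4 and on 8 of the 15 untested genes, and 7 held 0 counts; why was not tested.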
